A study of Mus musculus with 6 samples.

Results

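The 10 mRNAs described here encode the contractile and cytoskeletal proteins that mark smooth muscle, namely Myh11, Acta2, Actg2, Tagln, Cnn1, Des, Lmod1, Smtn, Synpo2 and Mylk. They were chosen by gene symbol, through the Ensembl gene ID of each row, and no measured value served as a criterion. Earlier results of these data were known when they were chosen. All 10 were listed in each of the 6 libraries, among 18437 mRNAs listed in any library. Ribo-seq, which sequences the stretches of mRNA that ribosomes shield from nuclease, had been applied to heart, lung, kidney, brain, small intestine and colon of untreated wild-type (WT) C57BL/6J mice aged 4 weeks. There was 1 library per tissue, so replicate spread is unknown and libraries were compared without a test. The number of animals behind a library is not given in the sources used here. Each value is an RPKM, the reads on the coding sequence (CDS) of 1 mRNA per gene, scaled for the length of that CDS and for the reads on all CDSs of the library, and is used as the ribosome density.

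Smooth muscle lines the wall of the gut, the airways and the blood vessels. It shortens when calcium and calmodulin activate myosin light chain kinase, which phosphorylates the regulatory light chain of myosin and lets the motor pull on actin filaments anchored in dense bodies. Visceral smooth muscle of the gut and vascular smooth muscle share most of this machinery. They are known to differ in their actins, with gamma-actin (Actg2) typical of the gut wall and alpha-actin (Acta2) typical of vessels.

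Libraries are named by their labels, and a value under a label is that of the library so labelled, because the tissue markers went against 4 of the 6. For heart and lung, 3 of 3 markers were highest in the library with that label. The 3 colon markers were highest under the kidney label, and the 3 small intestine markers under the brain label. The 3 kidney markers were highest under the colon label, and the 3 brain markers under the small intestine label. Markers also had reads outside the library in which they were highest. Under the heart label the colon markers Muc2, Car1 and Slc26a3 had 38.3, 37.5 and 7.21 RPKM. Under the kidney label they had 2486, 434 and 367 RPKM. Under the lung label Muc2 had 0.471 RPKM, and Car1 and Slc26a3 had no reads. The source of such reads, and their part in low member values, were not tested. Libraries held between 4504853 and 10635031 reads on CDSs, recovered from the RPKM values. The number of mRNAs with reads did not follow this depth, with 11520 under the brain label, which had the highest total, and 12325 under the colon label, which had the lowest. Kri1, a ribosome biogenesis gene, took between 0.400% (labelled lung) and 22.1% (labelled kidney) of the reads and lowered the RPKM of all other mRNAs of a library by the same share. Intervals in brackets are 95% intervals for counting error (exact Poisson for an RPKM). Reads carry no molecular identifiers, so the intervals leave out amplification and differences between animals.

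The 10 mRNAs together were densest in the 2 libraries that carried intestinal markers. Their summed RPKM was 4817 under the kidney label (95% interval 4767 to 4866) and 3606 under the brain label (3571 to 3641). It was 1446 under the heart label (1422 to 1471), 779 under the lung label (760 to 798) and 375 under the colon label (355 to 395). The small-intestine-labelled library, which carried brain markers, had 42.4 (37.9 to 47.3), so that the highest sum was 114-fold above the lowest. Des made up much of the heart sum. Without it the sum was 709 under the heart label and 728 under the lung label, close values for which no interval was computed. Median-of-ratios size factors make each fold of heart over lung 1.55 times larger, which places the heart label ahead also without Des. As a share of all reads the 10 mRNAs took 1.05% under the kidney label and 0.00909% under the small intestine label. In bulk tissue and from ribosome density alone, fewer smooth muscle cells, less RNA per cell and fewer ribosomes per mRNA cannot be told apart.

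**Figure D1:**
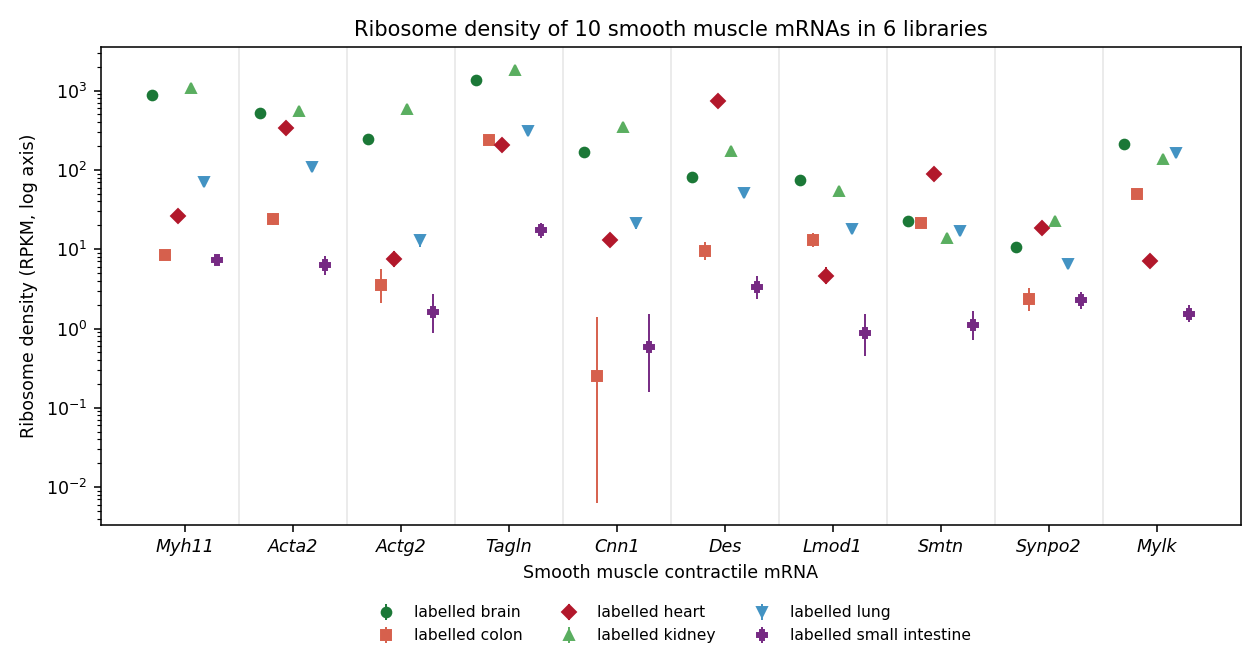
Ribosome density of the 10 smooth muscle mRNAs (RPKM, logarithmic axis) in the 6 libraries, named by their labels. Points are the values of single libraries and bars are 95% Poisson intervals for counting error. The libraries with kidney and brain labels lead for most mRNAs, the heart-labelled library leads for Des and Smtn, and the small-intestine-labelled library is lowest for 9 of the 10.

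Of the 10 mRNAs, 6 were highest under the kidney label, where 8.2% of the 14754 mRNAs with at least 20 reads over the 6 libraries had their highest value. A further 2 were highest under the brain label (15.5% of all such mRNAs) and 2 under the heart label (12.7%). None was highest in the libraries labelled colon (15.4%), lung (25.6%) or small intestine (22.7%). The small-intestine-labelled library was lowest for 9 mRNAs and the colon-labelled library for Cnn1. The share of all mRNAs lowest in each library was not counted, so these counts have no background. All 10 passed the filter of 20 reads, and single values rested on between 1 and 55583 reads, with 5 of the 60 values under 20 reads.

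To compare each library with the rest, the median of the other 5 was subtracted from its log2(RPKM + 1). At least 4-fold above that median were 7 of the 10 mRNAs under the brain label (10.2% of all mRNAs), 5 under the kidney label (7.9%) and 2 under the heart label (8.18%). Which of the leading libraries had more depended on the scaling, with 6 under the brain label and 7 under the kidney label without Kri1 in the denominator, and 7 and 8 with median-of-ratios size factors. The shares of all mRNAs were not counted under these other scalings. None reached this fold in the libraries labelled colon (9.22%), lung (13.4%) and small intestine (16.2%). The median difference of the 10 mRNAs was 2.36 on the log2 scale under the brain label and 2.16 under the kidney label, where the median of all mRNAs was -0.05 and 0. It was 0.39 under the lung label, -0.62 under the heart label, -1.70 under the colon label and -3.61 under the small intestine label. Close to the threshold were Mylk under the brain label (2.05) and Lmod1 under the kidney label (1.96).

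Myh11, the smooth muscle myosin heavy chain and the motor of the system, occupies positions 14012399 to 14109236 of chromosome 16 (GRCm39, minus strand), with a CDS of 5937 bases. Its density was 1095 RPKM under the kidney label, 880 RPKM under the brain label, 70.2 RPKM under the lung label, 25.9 RPKM under the heart label, 8.56 RPKM under the colon label and 7.40 RPKM under the small intestine label. The libraries with kidney and brain labels were thus set off from the other 4 by a wide gap, and the libraries with colon and small intestine labels overlapped within counting error. The highest value was 148-fold above the lowest. Myh9, a nonmuscle myosin heavy chain of the same family found in most cells, had 897 RPKM under the lung label, 695 RPKM under the brain label and 472 RPKM under the kidney label. Myh11 made up 69.9% of the summed RPKM of Myh11 and Myh9 under the kidney label (69.5 to 70.2, exact binomial) and 55.9% under the brain label (55.6 to 56.2). It was 29.7% under the heart label, 22.7% under the small intestine label, 7.26% under the lung label and 3.04% under the colon label.

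Mylk encodes myosin light chain kinase, which starts contraction, and lies on chromosome 16 from 34565580 to 34822790 on the plus strand. The mRNA counted here has a CDS of 5850 bases and encodes the long kinase. Reads of the shorter smooth muscle kinase and of telokin, which come from the same gene, fall within it and were divided by its full length. Mylk had 210 RPKM under the brain label, 162 RPKM under the lung label, 137 RPKM under the kidney label, 49.9 RPKM under the colon label, 7.12 RPKM under the heart label and 1.54 RPKM under the small intestine label. The brain-labelled library was ahead of the kidney-labelled library, unlike for Myh11. The order of the kidney and lung labels depended on the scaling, since Mylk under the kidney label was 0.842 times that under the lung label, but 1.08 times without Kri1 in the denominator and 1.31 times with size factors. The RPKM of Mylk over that of Myh11 was 0.125 under the kidney label, 0.238 under the brain label, 0.275 under the heart label and 0.208 under the small intestine label. The same ratio was 2.31 under the lung label and 5.83 under the colon label, so that Mylk exceeded the myosin in those 2 libraries. The long kinase is known in endothelium, and 5 of 5 endothelial markers were highest under the lung label (25.6% of all mRNAs), with a summed RPKM of 2190. The sum was 453 under the heart label, 195 under the colon label, 93.7 under the brain label, 70.7 under the kidney label and 40.8 under the small intestine label. The part of endothelial cells in the Mylk values was not tested.

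Of the paralogs of Mylk, Mylk3 and Mylk4 were densest under the heart label. Mylk3, the cardiac kinase, had 196 RPKM there and at most 2.42 RPKM in another library. Mylk4 had 169 RPKM there and at most 1.18 RPKM in another library.

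Acta2 and Actg2 are the 2 smooth muscle actins. Acta2 lies on chromosome 19 from 34217737 to 34232990 on the minus strand and Actg2 on chromosome 6 from 83489887 to 83513551 on the minus strand. The actin proteins are nearly alike, and the Methods leave out reads that map to several places, so the CDSs were compared first. In the 1128 bases that align, Acta2 and Actg2 were identical at 83.8%. Of all windows of 29 bases, about the length of a ribosome footprint, 2.72% of those in the CDS of Acta2 and 1.64% of those in Actg2 occur in another listed mRNA, against 36.1% in Actb and 11.7% in Actg1. The longest run that Acta2 and Actg2 share is 29 bases. The stretch below is the one of 60 bases where Acta2 and Actg2 differ most, given as DNA from 5′ to 3′ from the GENCODE M39 transcripts, with capitals at bases that differ from Acta2. It covers codons 146 to 165 of Acta2, and is shown because such scattered differences are what lets reads of 1 actin be told from those of another.
Acta2: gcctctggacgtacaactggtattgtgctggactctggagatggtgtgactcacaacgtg
Actg2: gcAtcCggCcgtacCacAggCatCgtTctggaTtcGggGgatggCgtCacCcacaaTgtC
Actc1: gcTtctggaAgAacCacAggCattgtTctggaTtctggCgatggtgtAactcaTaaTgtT
Acta1: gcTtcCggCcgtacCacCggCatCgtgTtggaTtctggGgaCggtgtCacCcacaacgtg
Actb: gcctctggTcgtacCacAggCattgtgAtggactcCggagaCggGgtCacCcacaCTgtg
Actg1: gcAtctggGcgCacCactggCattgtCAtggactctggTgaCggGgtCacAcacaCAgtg

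From Acta2 there were 16 differences in Actg2, 13 in Actc1, 13 in Acta1, 12 in Actb and 14 in Actg1 within these 60 bases. Acta2 had 558 RPKM under the kidney label, 530 RPKM under the brain label, 337 RPKM under the heart label, 108 RPKM under the lung label, 24.1 RPKM under the colon label and 6.25 RPKM under the small intestine label. The separate intervals of the upper 2 libraries overlapped, although their fold of 1.05 had an interval just above 1 (1.01 to 1.09, exact binomial). The heart-labelled library followed at a far higher level than for Myh11. Actg2 had 582 RPKM under the kidney label and 249 RPKM under the brain label. It had 13.0 RPKM under the lung label, 7.58 RPKM under the heart label, 3.54 RPKM under the colon label and 1.62 RPKM under the small intestine label, the last 2 from 18 and 14 reads.

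The balance of both actins was compared next, since a ratio within a library does not depend on the scaling between libraries. Actg2 made up 51.0% of the summed RPKM of Actg2 and Acta2 under the kidney label (95% interval 50.0 to 52.0, exact binomial) and 32.0% under the brain label (31.0 to 32.9). It made up 10.7% under the lung label (8.88 to 12.7) and 2.20% under the heart label (1.72 to 2.77). In the libraries with colon and small intestine labels, with few reads, it was 12.8% (7.76 to 19.5) and 20.6% (11.8 to 32.2). The intervals of the libraries with colon, lung and small intestine labels overlapped each other, and that of the last also overlapped the interval of the brain-labelled library. Acta2 was 44.4-fold denser than Actg2 under the heart label and 8.37-fold denser under the lung label.

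**Figure D2:**
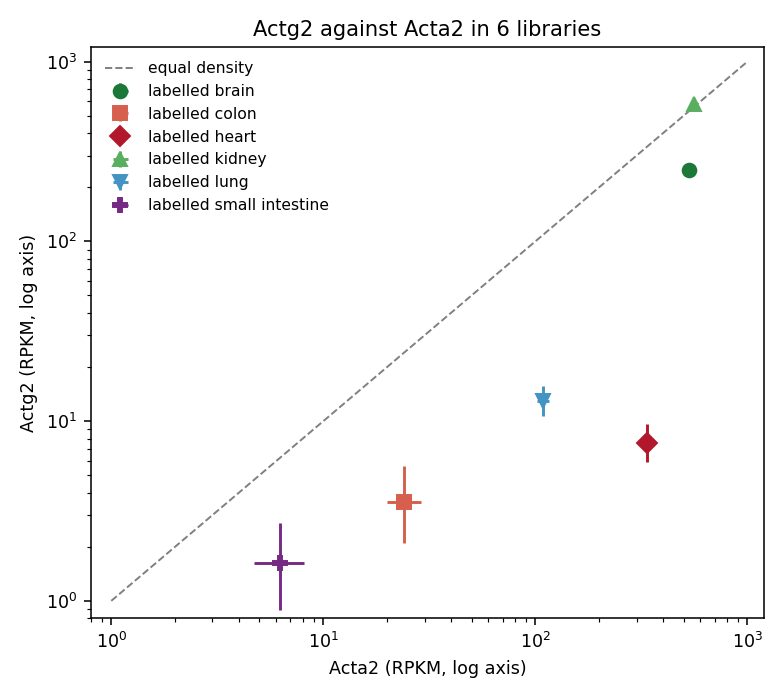
Density of Actg2 against Acta2 (RPKM, both axes logarithmic) in the 6 libraries, with 95% Poisson intervals for counting error and a dashed line of equal density. The kidney-labelled library lies close to the line, the brain-labelled library lies below it, and the heart-labelled library lies farthest below it, with 2.20% of the summed RPKM on Actg2.

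Among all 6 actins the smooth muscle pair took 43.7% of the summed RPKM under the kidney label and 20.8% under the brain label. The pair took 9.29% under the heart label, 4.98% under the lung label, 3.98% under the colon label and 1.31% under the small intestine label. The nonmuscle actins Actb and Actg1 took 97.6% under the small intestine label and 16.0% under the heart label. Actb may be understated, since 36.1% of its windows are found elsewhere, by an amount that was not measured. Actc1, the cardiac actin, took 72.7% under the heart label. It also took 14.8% under the colon label, with 103 RPKM.

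**Figure D3:**
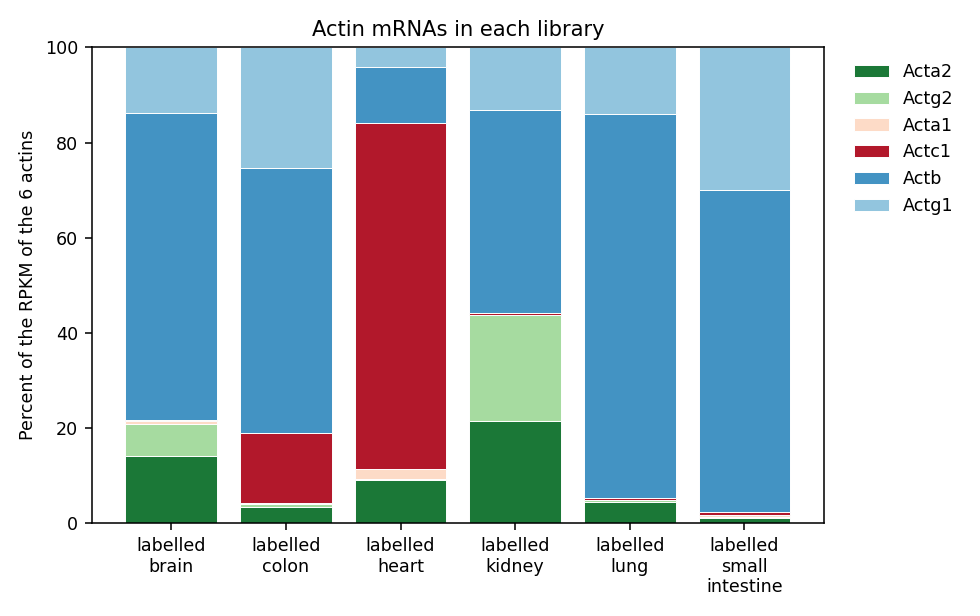
Percent of the summed RPKM of 6 actin mRNAs that each takes, by library. The smooth muscle pair, Acta2 and Actg2, forms the lower part of each bar and reaches 43.7% under the kidney label and 1.31% under the small intestine label.

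Tagln, Cnn1, Smtn and Lmod1 encode proteins of the actin filament. Tagln (transgelin, or SM22) binds actin and lies on chromosome 9 from 45840909 to 45847404 on the minus strand. It was the densest of the 10 mRNAs in every library except the heart-labelled library, with 1831 RPKM under the kidney label, 1380 RPKM under the brain label, 311 RPKM under the lung label, 242 RPKM under the colon label, 207 RPKM under the heart label and 17.4 RPKM under the small intestine label. No neighbours in this order overlapped within counting error, but with size factors the heart label moved ahead of the colon and lung labels. Its paralog Tagln2, which many nonmuscle cells express, had 199 RPKM under the lung label, and Tagln was 61.0% of the summed RPKM of both there. Under the kidney label Tagln was 96.1% of that sum.

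Cnn1 (calponin), which binds actin and restrains its myosin, lies on chromosome 9 from 22010512 to 22020926 on the plus strand. It had 351 RPKM under the kidney label and 167 RPKM under the brain label. It had 21.2 RPKM under the lung label, 13.2 RPKM under the heart label, 0.587 RPKM under the small intestine label from 4 reads and 0.249 RPKM under the colon label from 1 read. The colon-labelled library therefore held Tagln at 242 RPKM with next to no Cnn1. Cnn1 was 0.103% of the summed RPKM of Cnn1 and Tagln there (0.00260 to 0.573), against 16.1% under the kidney label, 10.8% under the brain label, 6.38% under the lung label and 5.99% under the heart label. Cnn3, a calponin of nonmuscle cells, had 2746 RPKM under the colon label, its highest value.

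Lmod1 (leiomodin 1), which starts new actin filaments in smooth muscle, lies on chromosome 1 from 135252509 to 135295907 on the plus strand. It had 75.5 RPKM under the brain label, 53.6 RPKM under the kidney label, 17.8 RPKM under the lung label, 13.1 RPKM under the colon label, 4.66 RPKM under the heart label and 0.879 RPKM under the small intestine label, the last from 12 reads. The brain-labelled library thus led, and the libraries with lung and colon labels overlapped. Its paralog Lmod2, the leiomodin of heart muscle, was densest elsewhere, with 445 RPKM under the heart label and 0 reads under the brain and lung labels. Lmod1 was 1.04% of the summed RPKM of both under the heart label.

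Smtn (smoothelin), an actin-binding protein of contractile smooth muscle, lies on chromosome 11 from 3467520 to 3490612 on the minus strand. It departed furthest from Myh11, with 88.1 RPKM under the heart label, 22.5 RPKM under the brain label, 21.4 RPKM under the colon label, 16.9 RPKM under the lung label, 13.9 RPKM under the kidney label and 1.11 RPKM under the small intestine label. The heart-labelled library stood alone, and the next 4 lay within a narrow range in which the libraries with brain and colon labels overlapped, as did the libraries with lung and kidney labels.

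Des and Synpo2 belong to the anchoring of the contractile apparatus, which smooth and striated muscle share. Des (desmin), the intermediate filament of muscle, lies on chromosome 1 from 75320511 to 75345223 on the plus strand. It had 738 RPKM under the heart label, 173 RPKM under the kidney label, 80.7 RPKM under the brain label, 51.2 RPKM under the lung label, 9.62 RPKM under the colon label and 3.35 RPKM under the small intestine label. It was the densest of the 10 mRNAs under the heart label, and no neighbours overlapped. Against Vim (vimentin), the intermediate filament of mesenchymal cells, Des was 82.5% of the summed RPKM of both under the heart label, 66.3% under the kidney label, 62.4% under the brain label and 9.44% under the lung label.

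Synpo2 (synaptopodin 2, or myopodin), an actin-bundling protein of dense bodies and Z-discs, lies on chromosome 3 from 122870168 to 123029798 on the minus strand. It had 22.8 RPKM under the kidney label, 18.7 RPKM under the heart label, 10.6 RPKM under the brain label, 6.59 RPKM under the lung label, 2.35 RPKM under the colon label and 2.29 RPKM under the small intestine label. It had the narrowest range of the 10, 9.97-fold between the highest and the lowest library, while that of Cnn1 was widest at 1409-fold, though its lowest value rests on 1 read.

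Cardiac muscle markers accompanied the members under the heart label, where 8 of 8 were highest (12.7% of all mRNAs), with a summed RPKM of 86360. The sum was 606 under the colon label, 469 under the lung label, 109 under the kidney label, 67.5 under the small intestine label and 18.8 under the brain label. Tnnt2, a cardiac troponin, had 105 RPKM under the colon label against 20788 RPKM under the heart label. None of the 8 markers was at 0 in any library. The part of heart muscle cells in the values of Des, Smtn, Synpo2 and Acta2 was not tested. The skeletal muscle markers stayed low, with a summed RPKM of 101 under the heart label, of which Acta1 gave 76.9 RPKM.

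Heart and lung are the libraries whose markers went with their labels. Between those alone, 4 of the 10 mRNAs were higher under the heart label (37.3% of the 11757 mRNAs with at least 20 reads in the pair) and 6 under the lung label, and no interval of a fold (exact binomial) included 1. Des was 14.4-fold higher under the heart label (13.2 to 15.7), Smtn 5.21-fold (4.66 to 5.84), Acta2 3.11-fold (2.89 to 3.34) and Synpo2 2.84-fold (2.41 to 3.37). Mylk was 22.8-fold higher under the lung label (20.4 to 25.5), Lmod1 3.81-fold (2.90 to 5.07) and Myh11 2.71-fold (2.54 to 2.89). Actg2, Cnn1 and Tagln were between 1.51-fold and 1.71-fold higher there. With median-of-ratios size factors each fold of heart over lung is 1.55 times larger, which turns Tagln to the heart-labelled library and makes 3 intervals, those of Tagln, Cnn1 and Actg2, include 1.

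The 2 libraries with intestinal markers were compared directly. Under the kidney label, which carried colon markers, 7 of the 10 mRNAs were higher than under the brain label, which carried small intestine markers, and 3 were lower. The share of all mRNAs higher under the kidney label was not counted. The median log2 difference of kidney over brain was 0.36 for the 10 mRNAs and -0.17 for all mRNAs compared in the pair. Actg2 was 2.34-fold higher under the kidney label (2.23 to 2.45), Synpo2 2.16-fold (1.91 to 2.45), Des 2.14-fold (1.99 to 2.30) and Cnn1 2.10-fold (1.97 to 2.24). These were the 4 members at least 2-fold higher there on the log2(RPKM + 1) scale, a fold that 24.2% of the 11507 mRNAs with at least 20 reads in the pair reached. No member was 2-fold higher under the brain label (25.8% of all mRNAs). Smtn was 1.61-fold higher under the brain label (1.41 to 1.85), Mylk 1.53-fold (1.49 to 1.58) and Lmod1 1.41-fold (1.29 to 1.54). Acta2 was 1.05-fold higher under the kidney label (1.01 to 1.09).

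Of the proteins that work with the members, Myl9, the regulatory light chain that Mylk phosphorylates, was 1.08-fold higher under the brain label (1.01 to 1.16), and Tpm2, a tropomyosin of smooth muscle, was 1.01-fold higher there (0.984 to 1.04). Leaving Kri1 out of the denominator multiplies each fold of kidney over brain by 1.26, which brings Mylk to 0.820 and Acta2 to 1.33 and turns the direction of none of the 10 members. It brings Myl9 to 1.17 and Tpm2 to 1.24, so that both were then higher under the kidney label. The summed RPKM of 7 fibroblast markers was 5638 under the kidney label and 3607 under the brain label, most of it from collagen mRNAs. Col3a1 had 2789 and 1806 RPKM, whereas Dcn went the other way, with 66.2 and 96.3 RPKM. The part of fibroblasts in the folds was not tested.

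**Figure D4:**
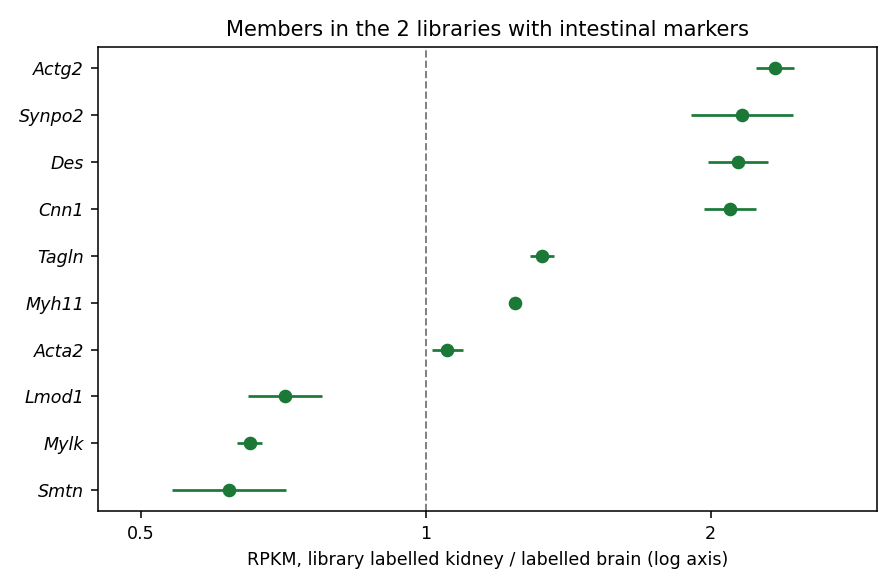
RPKM under the kidney label over that under the brain label for the 10 mRNAs (logarithmic axis), with 95% exact binomial intervals for counting error. Actg2, Synpo2, Des and Cnn1 lie above 2, Tagln, Myh11 and Acta2 between 1 and 2, and Lmod1, Mylk and Smtn below 1.

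Regulatory sequence was examined because contractile genes of smooth muscle are known targets of serum response factor, which binds the CArG box. A CArG box was searched in the 1000 bases before the 5′ end of each mRNA as listed in the files, on the GRCm39 genome. It reads the same on both strands. It was found for 3 of the 10 mRNAs, Myh11, Actg2 and Tagln, and for 5.27% of 18243 mRNAs. With 1 inner base allowed to be G or C it was found for 4 of the 10, Synpo2 being the fourth, and for 30.5% of all. A match is a description of these letters and does not show binding. The boxes without such a base are given below with their flanks, 5′ to 3′ on the strand of the gene, with the box in capitals, since the box is the known binding sequence of that factor. They lie at chr6:83513296-83513325 and chr6:83513259-83513288 for Actg2, chr9:45847449-45847478 for Tagln and chr16:14110175-14110204 for Myh11, all on the minus strand.
Actg2, 58 bases before the 5′ end: aaaaaaaacaCCTTATATGGtaatattgct
Actg2, 21 bases before the 5′ end: cgtcagctggCCTTTTTAGGgactctgttt
Tagln, 102 bases before the 5′ end: agggtcctgcCCATAAAAGGtttttcccgg
Myh11, 955 bases before the 5′ end: gcctcgacttCCTTTTATGGcctgagtggt

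The later annotation extends the first exon of Actg2 beyond the end listed in the files, so both of its boxes lie within the gene there. Serum response factor itself (Srf) had 13.9 RPKM under the heart label, 5.62 RPKM under the small intestine label, 3.82 RPKM under the colon label and 0.959 RPKM under the kidney label. It was not listed under the brain and lung labels, where 3 reads would give 0.187 and 0.257 RPKM. Myocd, the muscle coactivator of Srf, had 8.04 RPKM under the heart label and 0.537 RPKM under the kidney label, and had no reads under the brain, colon and lung labels. Of the 7 mRNAs of transcriptional control, none was 4-fold above the other libraries under the kidney label (7.9% of all mRNAs) or the brain label (10.2%), shares at which few of 7 would be counted. Srf and Myocd were so under the heart label (8.18%), and Foxf1, a factor of gut and lung mesenchyme, was so under the lung label (13.4%) at 14.8 RPKM.

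Other mRNAs of the contractile pathway were described by the same counts. Of 12 mRNAs for myosin light chains and their control, 11 passed the filter, and Myl12b had no reads in any library. At least 4-fold above the other libraries were 2 under the brain label (10.2% of all mRNAs), 1 under the heart label (8.18%), 1 under the kidney label (7.9%) and 2 under the lung label (13.4%), with median differences between -0.78 and 0.96. With 11 mRNAs these counts lie near the shares over all mRNAs. Myl9 had 374 RPKM under the brain label, 346 RPKM under the kidney label, 110 RPKM under the lung label, 36.9 RPKM under the heart label, 31.4 RPKM under the colon label and 1.27 RPKM under the small intestine label. Its 2 leading libraries and its lowest were also those of the summed members. Myl6, the essential light chain that smooth and nonmuscle myosin share, had 1857 RPKM under the lung label, 1316 RPKM under the brain label and 289 RPKM under the small intestine label. Rhoa, a small GTPase that sustains contraction, had 1892 RPKM under the lung label and 290 RPKM under the small intestine label.

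Of 5 thin filament mRNAs, 4 passed the filter. Tpm2 was the one 4-fold above the other libraries under the brain label (1147 RPKM), a fold that 10.2% of all mRNAs reached. It was also the one under the kidney label (1132 RPKM, 7.9% of all mRNAs). Tpm1, a tropomyosin that all muscle types use, was the one under the heart label (8.18% of all mRNAs). It had 42604 RPKM there and 807 RPKM under the kidney label. Of 14 mRNAs of dense bodies and adhesion, which link the filaments to the membrane, 10 were highest under the lung label (25.6% of all mRNAs). Under the brain label (15.5%) and the kidney label (8.2%) it was 1 each. Itga1, an integrin that binds collagen, had 346 RPKM under the lung label and 135 RPKM under the kidney label, and Vcl (vinculin) had 377 and 67.2 RPKM. Of 15 channels, receptors and cyclic nucleotide enzymes, 14 passed the filter. Of those, 6 were highest under the lung label (25.6% of all mRNAs) and 3 under the small intestine label (22.7%). The count under the small intestine label lies near the share over all mRNAs. The median difference was 1.00 under the lung label and 1.24 under the small intestine label. The nitric oxide receptor subunit Gucy1a1 had 554 RPKM under the lung label, 62.5 RPKM under the small intestine label and 34.4 RPKM under the kidney label.

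Markers of the mural cells of vessels, smooth muscle and pericytes, were set beside the contractile members. Of 8 such markers, 4 were highest under the lung label (25.6% of all mRNAs), 3 under the heart label (12.7%) and 1 under the colon label (15.4%). None was highest under the kidney label (8.2%) or the brain label (15.5%). With 8 markers, the counts under the colon, kidney and brain labels lie near the shares over all mRNAs. Their summed RPKM was 756 under the lung label, 368 under the heart label, 175 under the kidney label, 132 under the small intestine label, 109 under the colon label and 96.0 under the brain label. Notch3, a receptor of vascular smooth muscle, had 47.6 RPKM under the lung label and 0.777 RPKM under the kidney label. Pdgfrb, a receptor of mural cells and fibroblasts, had 148 RPKM under the lung label and 13.8 RPKM under the kidney label. Other markers went the other way. Rgs5, a pericyte marker, had 111 RPKM under the heart label, 17.5 RPKM under the kidney label and 0 reads under the lung label. Abcc9 and Kcnj8 had 14.5 and 11.1 RPKM under the kidney label, against 6.86 and 5.90 RPKM under the lung label. Cspg4 had 33.5 RPKM under the colon label, its highest value, 27.8 RPKM under the lung label and 15.9 RPKM under the kidney label. Mcam, which endothelium also expresses, gave 469.8 RPKM of the sum under the lung label. Without Mcam the sum was 297 under the heart label, 286 under the lung label, 92.6 under the colon label, 73.5 under the kidney label, 67.4 under the brain label and 48.3 under the small intestine label. With Mcam left out the lung label no longer led the heart label, whereas both stayed above the other 4 libraries. Abcc9, which was kept, gave 98.1 RPKM of the sum under the heart label and 6.86 RPKM under the lung label. The order of heart and lung thus depends on the markers counted. The part of endothelial cells in these sums was not tested. Of the 3 markers of interstitial cells of Cajal, the pacemaker cells of the gut wall, Ano1 had 55.5 RPKM under the kidney label and 54.9 RPKM under the lung label, with overlapping intervals. Kit was highest under the lung label (27.8 RPKM, against 21.1 RPKM under the kidney label) and Etv1 under the small intestine label (46.3 RPKM, against 6.17 RPKM under the kidney label).

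**Figure D5:**
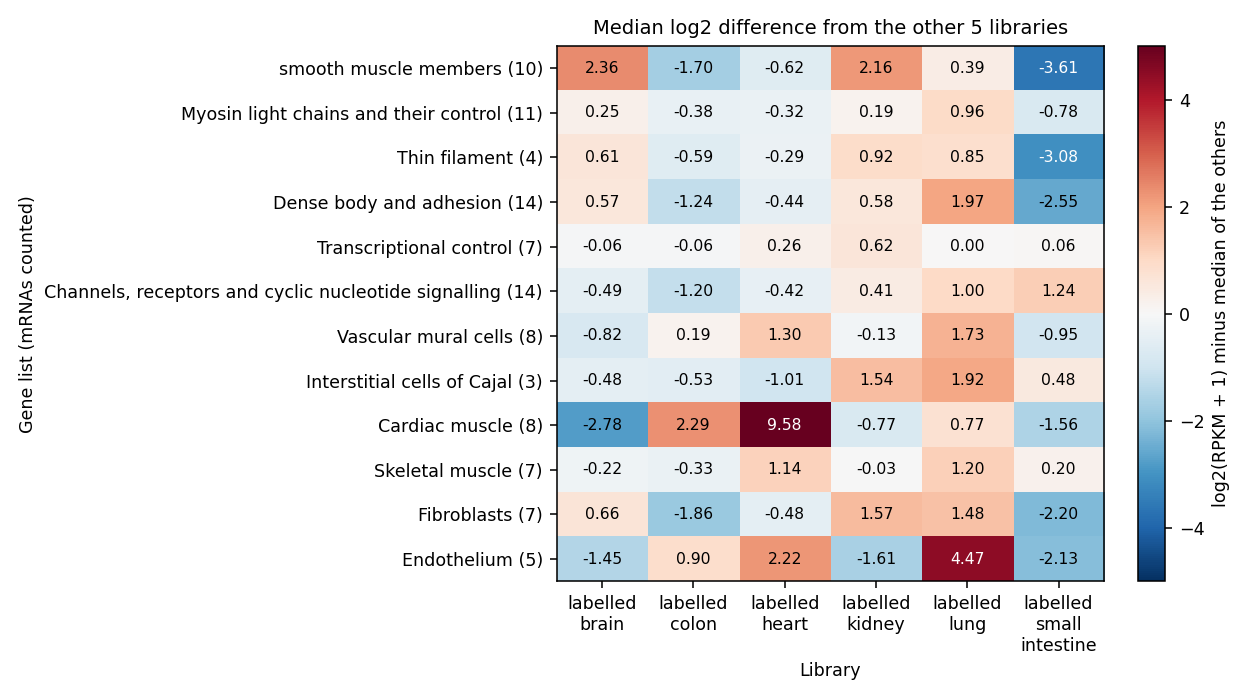
Median log2 difference of each gene list from the other 5 libraries (log2(RPKM + 1) minus the median of the others, with the number of mRNAs counted in brackets). The 10 smooth muscle mRNAs are highest in the libraries labelled brain (2.36) and kidney (2.16), whereas vascular mural cell markers are highest under the lung label (1.73) and cardiac markers under the heart label (9.58), beyond the colour scale.

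The profiles of the members over the 6 libraries were close to each other for some and not for others. Pearson's r of log2(RPKM + 1) with Myh11 was 0.99 for Actg2, 0.98 for Cnn1, 0.88 for Lmod1, 0.87 for Tagln, 0.83 for Acta2, 0.74 for Mylk and 0.72 for Synpo2. It was 0.51 for Des and 0.21 for Smtn. These values rest on 6 points from libraries of different depth and describe these libraries only. Among 10927 other mRNAs with at least 200 reads, those most like Myh11 were Slc26a2, Iqgap3, Mrgprf, Rnf186 and Slfn9, with r between 0.990 and 0.994. Slc26a2, a sulfate transporter, had 71.4 RPKM under the kidney label and 38.1 RPKM under the brain label. Most like Acta2 were Rpp21, Fbxo32, Mtm1, Pgm5 and Pdlim3, with r between 0.971 and 0.985. Pgm5 (aciculin), an adhesion protein of muscle, had 114 RPKM under the heart label, 95.7 RPKM under the kidney label and 79.2 RPKM under the brain label.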

How the data were processed

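Ribo-seq libraries of 6 mouse tissues were analysed, 1 per tissue. Per the labels, the submitters used Cutadapt, STAR and GRCm39 (versions not given in the sources used here). The Methods, written for the macrophage libraries, describe alignment to the longest-CDS mRNA of each Ensembl gene without multi-mapped reads. The authors deposited RPKM values, 1 per mRNA. Multiplied by CDS length these were whole reads (tolerance 1e-06) for 100% of values. An mRNA not listed in a library was taken as 0 reads. Symbols came from GENCODE M39 for 18424 of 18437 gene IDs, and 98.6% of CDSs had the same length there. With 1 library per tissue no test was run, and count models were not used. Printed folds are plain RPKM ratios, and calls of 2-fold and 4-fold use log2(RPKM + 1). Named were all members, fixed paralogs, the mRNAs most like Myh11 and Acta2, and mostly the densest of each fixed list. Myl9, Tnnt2, Notch3, Myocd Rgs5, Mcam, Kit, Etv1, Foxf1 and other single list genes were chosen after their values were seen. Members and lists were chosen with earlier results of these data known. Recovery, fold calls and the interval of a summed RPKM were tested on simulated data. The exact Poisson and binomial intervals were not. Alternatives covered the denominator, scaling, fold, pseudocount, filter, CDS length and libraries compared. Scripts ran in Python 3.11.15 with pandas 2.3.3, scipy 1.17.1 and numpy 2.4.6, and plots were drawn with matplotlib 3.10.9.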

Additional observations from a re-analysis of the deposited data

How the results depend on the processing

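The number of members highest in each library was the same under every scaling tried. Leaving out the 4 libraries whose markers go against their labels, a setting chosen after seeing the data, gave 4 members highest under the heart label and 6 under the lung label. The share of Actg2 stayed within its interval when only unique windows were counted and when reads replaced RPKM, and the summed RPKM stayed within its interval with unique windows. Median-of-ratios size factors shift all log2 values of a library by between -0.44 (labelled lung) and 0.23 (labelled small intestine). The summed RPKM was then 5531 under the kidney label, 3460.5 under brain, 1658 under heart, 574 under lung, 343 under colon and 49.7 under small intestine, which kept the order of the libraries. Without Kri1 in the denominator the sum was 3679.9, 402, 6185 and 49.3 under the brain, colon, kidney and small intestine labels. Without Kri1 and the mitochondrially encoded mRNAs it was 3753, 413, 1545, 6476 and 50.5 under the brain, colon, heart, kidney and small intestine labels. Without Des it was 3525, 709, 4644 and 728 under the brain, heart, kidney and lung labels. The lung label was then slightly ahead of the heart label in RPKM, but not with size factors. The number of members past the fold was 3 under the brain label, 1 under the heart label and 3 under the kidney label at 8-fold, and 4 under the heart label, 9 under the kidney label and 2 under the lung label at 2-fold. With size factors it was 8 under the kidney label and 7 under the brain label, and without Kri1 7 and 6, so that the order of both turned. Shares of all mRNAs were counted only at 4-fold with the main scaling. The counts at other folds and scalings thus have no background. Settings added after seeing the data reversed 2 folds. With Kri1 left out, with Kri1 and mitochondrially encoded mRNAs left out, and with size factors, Mylk under the kidney label over that under the lung label became 1.08, 1.12 and 1.31, and Myl9 under the kidney label over that under the brain label became 1.17, 1.20 and 1.11. The median log2 difference became 2.67 under the kidney label, 0.00 under the lung label and -0.00 under the heart label with size factors. By Spearman's rank correlation 10 mRNAs tied at 1 with Myh11. The pair counts kept their values except that 5 members were higher under the heart label than under the lung label with size factors. No paired analysis was possible because each tissue has 1 library. Depth limits Actg2, Cnn1 and Lmod1 under the colon and small intestine labels, where values rest on between 1 and 18 reads except Lmod1 under the colon label.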
